A study of Mus musculus with 6 samples.

Results

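The interchromosomal pairs of this 5C experiment joined a primer on the immunoglobulin heavy chain locus (Igh, chromosome 12) to a primer in a gene desert on chromosome 5. They were chosen by the primer names alone, as every forward-reverse combination with one primer in each locus, and numbered 5512 of the 18768 possible pairs. Of these, 2800 joined an Igh forward primer to a desert reverse primer, and 2712 joined a desert forward primer to an Igh reverse primer. The 225 Igh fragments and 49 desert fragments are HindIII restriction fragments, numbered here as in the primer names (FOR, forward; REV, reverse; "desert" marks chromosome 5). Pairs without a read were counted as 0.

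The libraries came from mouse embryonic fibroblasts (MEF) taken from culture, from Rag2-deficient pro-B cells of bone marrow grown for 4 days in IL7, and from CD43- resting B cells of the spleen isolated with magnetic beads. There were 2 libraries of each, which the study names as biological replicates; p-values therefore measure the spread between these libraries. Strain, age and sex were not given in the sources used here. Cell type, tissue and culture history go together in this design and cannot be told apart. Depth was 20580457 to 24191175 valid read pairs per library, and DNA libraries hold no expressed markers by which the labelled cell types could be checked.

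V(D)J recombination assembles the heavy chain gene from V, D and J segments and deletes the DNA that lay between the joined segments. The RAG recombinase, of which Rag2 is a subunit, makes the cuts, so Rag2-deficient pro-B cells and fibroblasts keep the locus in its unrearranged form, while mature B cells carry it rearranged, with different V segments in different cells. In 5C, a primer pair is ligated and amplified where 2 restriction fragments were joined after crosslinking, and products between chromosomes are commonly read as a mixture of rare contacts, random ligation and primer artefacts. Reads of an Igh fragment with an unrelated locus do not depend on distance along Igh. They can reflect how well a fragment is recovered and how much of its DNA is present, but also rare contacts and primer artefacts. These parts were not separated here.

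One primer pair held most of the interchromosomal reads. FOR 817, in the 5′ flank beyond the V genes (mm9 chr12:117278387-117288604), paired with desert REV 31 (mm9 chr5:133313225-133314343) in 585423 and 352634 reads in the MEF libraries (replicates 1 and 2), 73138 and 251736 in pro-B, and 357345 and 386197 in resting B cells. These were 83.2% and 76.2% of the interchromosomal reads in MEF, 59.9% and 41.2% in pro-B, and 57.4% and 55.0% in resting B cells. The pair led in all 6 libraries, and its reads spanned 8.0-fold between the lowest and highest library.

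The excess belonged to the combination and to neither primer alone. The 24 other desert partners of FOR 817 together gave 633 and 721 reads in MEF, 217 and 1019 in pro-B, and 1760 and 1726 in resting B cells. The 111 other Igh partners of desert REV 31 gave 2662 to 27536 reads. From the reads of both primers with all their other interchromosomal partners, 26.4 to 460.3 reads would be expected for the pair, and the observed counts were 781 to 6450 times higher. Within its own chromosome FOR 817 had 52955 to 69616 reads, so that the single desert partner gave 1.05 to 10.5 times as many reads as all its Igh partners together. Whether this product is a junction of the 2 fragments or an artefact of the primers was not tested.

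Without this pair, the share of interchromosomal reads differed most between the 2 pro-B libraries. All 5512 pairs made up 2.91% and 2.02% of the valid pairs in MEF, 0.554% and 2.74% in pro-B, and 3.01% and 3.41% in resting B cells. The remaining 118141 and 110159 reads in MEF were 0.488% and 0.482% of the library (mean 0.485% ± 0.005, SD, n = 2). In pro-B cells the remaining reads were 48909 in replicate 1 and 359788 in replicate 2, or 0.222% and 1.61% (mean 0.918% ± 0.984, SD, n = 2). In resting B cells they were 265291 and 315999, or 1.28% and 1.54% (mean 1.41% ± 0.18, SD, n = 2). The 2 pro-B libraries thus lay at both ends of the series, 7.36-fold apart in reads, while the other replicates lay close together. Resting B cells lay above MEF in both libraries, but 2 libraries against 2 cannot reach an exact two-sided permutation p below 0.333. The 95% Wilson interval of each share was narrow (0.220% to 0.224% in pro-B replicate 1 and 1.61% to 1.62% in replicate 2). These intervals cover counting error only, since no molecular identifiers were used.

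**Figure D1:**
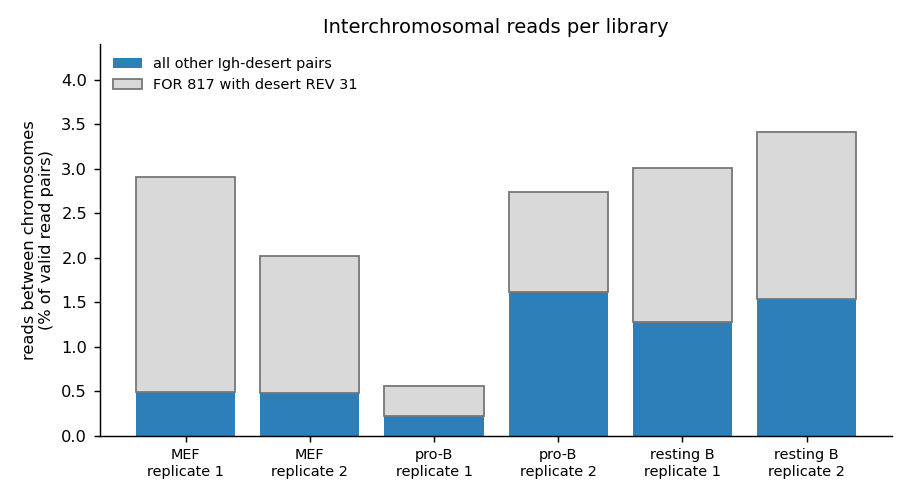
Interchromosomal reads as a percentage of valid read pairs in each of the 6 libraries, split into FOR 817 with desert REV 31 (grey) and all other Igh-desert pairs (blue). The grey part is the larger in every library but pro-B replicate 2, where it is 41.2% of the interchromosomal reads. The blue part runs from 0.222% in pro-B replicate 1 to 1.61% in pro-B replicate 2.

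The remaining reads were also concentrated on a few fragments. FOR 126, in the proximal V region (mm9 chr12:114823610-114829182), REV 545, in the near distal V region (mm9 chr12:116342486-116353413), and REV 83, in the D-J region (mm9 chr12:114667887-114670119), together held 23.7% to 32.0% of them in each library. FOR 126 was in 6 of the 10 most abundant pairs, always within 0.358 to 2.30 times the reads expected from its own and its partner's totals. It is thus a fragment that gave reads with many desert partners (86.0% of its desert pairs had a read, the highest share of any Igh fragment). FOR 126 held 10.6% and 10.4% of the remaining reads in MEF, 10.9% and 10.6% in pro-B, and 9.71% and 9.16% in resting B cells.

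REV 83 differed from FOR 126 in resting on 1 partner. Its pair with desert FOR 27 (mm9 chr5:133295558-133304564) held 80.3% to 94.3% of its interchromosomal reads, at 11.2 to 28.7 times the expected count. That pair had 9802 and 6012 reads in MEF, 2236 and 21957 in pro-B, and 33759 and 35087 in resting B cells. REV 83 as a whole held 8.88% and 6.79% of the remaining reads in MEF, 4.95% and 6.47% in pro-B, and 14.3% and 12.9% in resting B cells. Both resting B libraries lay above the other 4, but the fragment did not pass the edgeR test in any of the 3 comparisons (resting B over pro-B log2 fold 1.30 ± 0.44, SE; adjusted p = 0.067).

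A further pair, FOR 38 in the constant region (mm9 chr12:114502800-114510164) with desert REV 29, was far above expectation in MEF and pro-B cells and less so in resting B cells. Its reads were 4487 and 1332 in MEF, 1310 and 4549 in pro-B, and 1074 and 1108 in resting B cells. These counts were 103 and 30.3 times the expected number in MEF, 32.4 and 28.0 times in pro-B, and 8.05 and 7.45 times in resting B cells. The difference between the groups was not tested for this ratio.

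Most interchromosomal pairs were close to the limit of detection. Between 50.8% and 59.6% of the pairs had at least 1 read in a library, and the median pair had 1 read. A total of 1464 pairs had reads in all 6 libraries and 1004 had none in any. For a pair without a read, counting error allows up to 3 reads. With FOR 817 and desert REV 31 left aside, 65 to 158 pairs were enough to give 50% of the remaining reads of a library.

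Recovery differed widely between desert fragments. Of the 49 desert fragments, 30 had a read in over 50% of their pairs (51.9% to 97.1%), and the other 19 in 4.72% to 46.3%. The 19 fragments held 2136 of the 5512 pairs and 935 of the 1004 pairs with no read in any library. Of their values 79.2% were 0, against 22.9% for the 30. The split was made on these same reads, so this difference in zeros follows from it. The 19 fragments took 0.455% to 4.74% of the remaining reads, most in pro-B replicate 1. The same fragments were poorly recovered within the desert: their reads with desert partners summed to 12 to 6142 over the 6 libraries (median 812), against a median of 57882.5 for the well recovered fragments. Across the 49 desert fragments, interchromosomal and within-desert reads ranked alike in each library (Spearman rho 0.855 to 0.896). Across the 225 Igh fragments the same rank correlation was 0.459 to 0.687, and that with fragment length was 0.0787 to 0.195. These are descriptions across fragments that share primers and libraries, with no test.

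**Figure D2:**
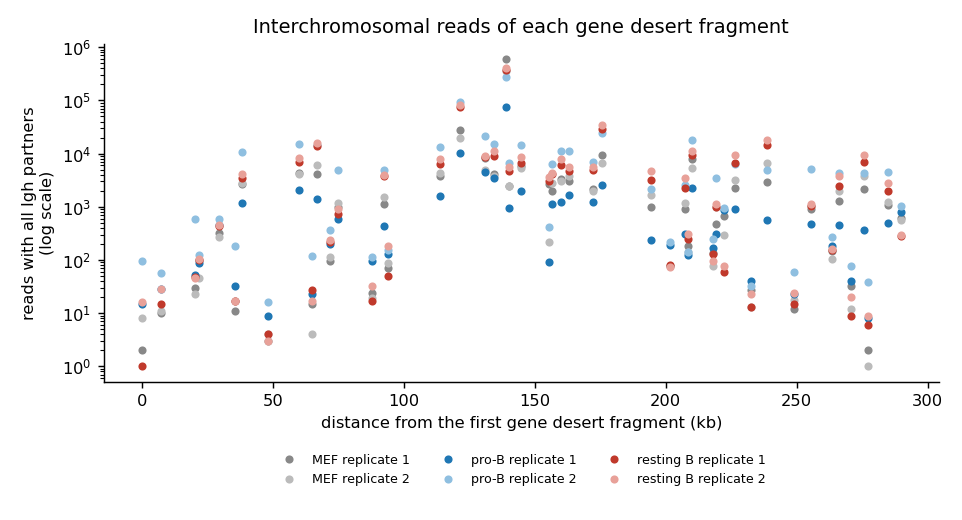
Interchromosomal reads of each of the 49 desert fragments, summed over all Igh partners (log scale), against the distance from the first desert fragment in kb; each point is 1 fragment in 1 library. The fragments differ from each other by far more than the 6 libraries do, and desert REV 31, with its partner FOR 817, is the highest.

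The interchromosomal pairs gave a level of background against which pairs within Igh could be read. The 95th percentile of the 5512 pairs was 66 and 79 reads in MEF, 30 and 239.5 in pro-B, and 168 and 193.5 in resting B cells. Of the 5927 Igh pairs over 1000 kb apart, the share at or below that level was 66.3% and 57.2% in MEF, 48.6% and 82.2% in pro-B, and 72.1% and 76.0% in resting B cells. At most 50 kb apart, the share was 2.43% to 2.91% in MEF and pro-B replicate 1, and 14.2% to 18.9% in pro-B replicate 2 and resting B cells. Taking the 30 well recovered desert fragments alone, where the percentile rises, 61.8% (pro-B replicate 1) to 88.8% (pro-B replicate 2) of the far pairs lay at or below it. The order of the libraries was the same with both sets. The 2 pro-B libraries, again, gave the lowest and highest values, although their median far pair had 32 and 50 reads.

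**Figure D3:**
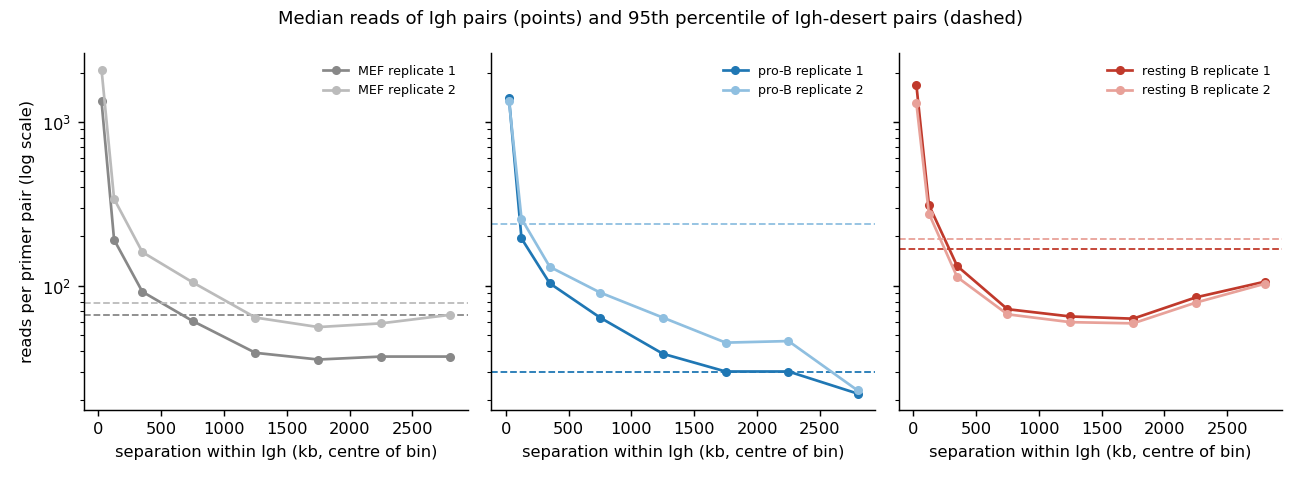
Median reads per Igh primer pair by separation (points, placed at the centre of each distance bin, in kb) and the 95th percentile of the interchromosomal pairs (dashed line of the same colour), on a log scale, for each library. In MEF replicate 1 (median 61 reads against a line at 66 from 500 to 1000 kb), pro-B replicate 2 and both resting B libraries the median falls below the dashed line within 1000 kb; in MEF replicate 2 it does so from 1000 kb on, and in pro-B replicate 1 only at the longest separations.

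To ask whether recombination left less of the V-D and V region DNA in resting B cells, reads with the desert were summed over 10 Igh regions, ordered from 3′ to 5′: the 3′ flank, the 3′ regulatory region (3′RR, a cluster of enhancers), the constant region, the D-J region, the V-D intergenic region, 4 V gene regions (proximal, middle, near distal and far distal) and the 5′ flank. The D-J region as drawn here runs from FOR 76 to FOR 91 (mm9 chr12:114656273-114691293). It includes the intronic enhancer fragment REV 81 and, on its constant-region side, FOR 76 to FOR 80, all DNA that joining keeps. V-D, which joining of any V segment removes, is covered by 5 fragments only. Its share of the remaining reads was 1.10% and 1.55% in MEF, 0.732% and 1.16% in pro-B, and 1.01% and 0.981% in resting B cells. The resting B libraries lay between the 2 pro-B libraries and below both MEF libraries. The fitted log2 fold was -0.28 ± 0.32 (SE) for resting B over MEF and 0.11 ± 0.32 for resting B over pro-B cells, neither past the threshold (edgeR, adjusted p = 0.75 and 0.73).

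The 4 V gene regions also lay slightly lower in resting B cells, without passing the test. Proximal V held 16.9% and 15.8% of the remaining reads in MEF, 16.5% and 15.3% in pro-B, and 13.5% and 13.1% in resting B cells. Middle V held 13.8% and 16.3%, 15.9% and 16.4%, and 13.0% and 12.5% in the same order. In both regions the 2 resting B libraries were the lowest of the 6. In near distal V they overlapped MEF, with 23.0% and 19.7% in MEF, 26.7% and 27.4% in pro-B, and 19.3% and 20.5% in resting B cells. Shares of a total depend on each other, and the D-J region held 18.7% and 17.5% of it in resting B cells, against 7.71% to 13.1% in the other libraries. The log2 fold of resting B over pro-B cells was -0.21 ± 0.17 (SE) for proximal V, -0.29 ± 0.15 for middle V, -0.39 ± 0.21 for near distal V and -0.26 ± 0.18 for far distal V (edgeR, adjusted p = 0.33, 0.20, 0.20 and 0.28). Against MEF all 4 values lay between -0.20 and -0.01, and they were above 0 when the total of interchromosomal reads, with the abundant pair in it, served as library size. That scaling moved the median fold of all Igh fragments to 1.23 in pro-B over MEF, 0.93 in resting B over MEF and -0.31 in resting B over pro-B cells, from 0.03, -0.02 and -0.05 with TMM (trimmed mean of M values) scaling.

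Calls among regions fell on the D-J region, which holds kept as well as deletable DNA, and the 3′ flank, both higher in resting B cells. Of the 10 regions, 1 was called in resting B over MEF (10% of regions), 2 in resting B over pro-B (20%) and none in pro-B over MEF (0%; 2 at an unadjusted p under 0.05; no other tool was run on regions as summed reads). The D-J region held 13.1% and 11.9% of the remaining reads in MEF, 7.71% and 9.81% in pro-B, and 18.7% and 17.5% in resting B cells. It was 0.63 ± 0.18 (log2, SE) higher in resting B cells than in MEF (edgeR, adjusted p = 0.038) and 1.09 ± 0.18 higher than in pro-B cells (adjusted p = 0.00028). Without REV 83 these were 0.06 ± 0.15 (adjusted p = 0.78) and 0.61 ± 0.15 (adjusted p = 0.017). The call against MEF was thus lost without that fragment. It was also lost when a library of pro-B or resting B cells was left out, at folds of 0.57 to 0.68 (adjusted p = 0.16 without pro-B replicate 1, 0.10 without pro-B replicate 2, 0.53 without resting B replicate 1 and 0.23 without resting B replicate 2). With the replicate number as a block the fold was 0.63 (adjusted p = 0.13), over Igh forward primers alone 0.17 (adjusted p = 0.50), and over reverse primers alone 0.67 (adjusted p = 0.18). In limma, giving every pair equal weight, it was 0.29 (adjusted p = 0.61). The edgeR call against MEF was kept without the most abundant 1% of pairs (fold 0.30, adjusted p = 0.026). It was kept with well recovered desert fragments only (0.61, adjusted p = 0.028). It also held with total interchromosomal reads (1.65, adjusted p = 0.00049) or flank and constant reads (1.97, adjusted p = 0.0044) as library size. The fold was 0.91 without MEF replicate 1 and 0.41 without MEF replicate 2. Without pro-B replicate 1 no region was called in resting B over pro-B cells. The 3′ flank was 0.63 ± 0.19 higher in resting B than in pro-B cells (adjusted p = 0.026). Within it 14 of 16 fragments had a fold above 0, beside 11 of 13 in D-J, 13 of 17 in the 5′ flank and 17 of 51 in middle V. Elsewhere it was 16 of 25 in the constant region, 4 of 8 in the 3′RR and 2 of 5 in V-D. In the other V regions it was 9 of 19 in proximal, 13 of 42 in near distal and 7 of 28 in far distal V. The median fold over all 224 Igh fragments was -0.05. Fragments share libraries and scaling, so these counts are descriptions only.

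The 5′ flank shows what the single pair does to a sum. With all pairs its log2 fold was -1.53 ± 0.67 (SE) in resting B over MEF and 0.28 ± 0.65 in resting B over pro-B cells, neither called. Without FOR 817 with desert REV 31 it was 0.53 ± 0.19 (adjusted p = 0.050, not past the threshold) and 0.65 ± 0.19 (adjusted p = 0.011). With the same pair left out, the D-J region was at 0.62 ± 0.21 against MEF and missed the threshold too (adjusted p = 0.050). The sign of the 5′ flank against MEF turned, and the flank joined the 3′ flank and D-J among the regions higher in resting B than in pro-B cells. The other 9 regions moved by at most 0.02 (log2) when the pair was left out.

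**Figure D4:**
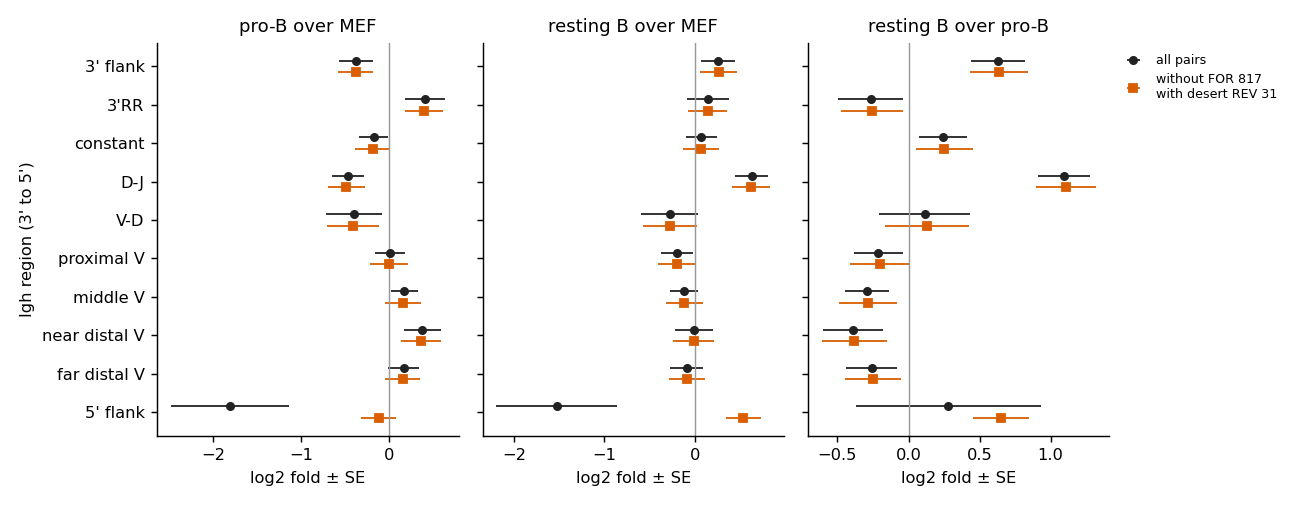
Log2 fold ± SE (edgeR) of interchromosomal reads summed over each Igh region in the 3 comparisons, with all pairs (black circles) and without FOR 817 with desert REV 31 (orange squares). The 5′ flank is the region that moves, from -1.53 to 0.53 in resting B over MEF, and D-J is the highest in both comparisons of resting B cells without that pair.

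A ratio within a library needs no scaling between libraries. The mean reads per fragment of the inner regions (V-D and proximal V), which joining can delete, was divided by that of the outer regions (3′ flank, constant region and 5′ flank), which it keeps. The 3′RR lies between the 3′ flank and the constant region and is also kept, but was in neither set. With all pairs the log2 ratio was -3.57 and -3.04 in MEF, -2.02 and -1.15 in pro-B, and -2.19 and -2.12 in resting B cells. The resting B libraries lay within the range of the other 4 (difference of means 0.29; exact two-sided permutation test over 15 splits, p = 0.93). Without FOR 817 with desert REV 31, which is an outer pair, it was 1.04 and 0.75 in MEF, 1.05 and 1.13 in pro-B, and 0.50 and 0.41 in resting B cells. Both resting B libraries were then below all 4 others, by 0.54 on average (exact two-sided permutation p = 0.13, the smallest that the test as run can give with 15 splits). The threshold of 0.05 cannot be reached in this design.

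The lower ratio without the pair depended on the orientation of the primers. Over Igh reverse primers the resting B libraries, at -1.11 and -1.10, were 1.07 below the others (exact permutation p = 0.13). Over Igh forward primers without the pair they were at 1.57 and 1.42, and the other 4 between 1.46 and 2.00, a difference of 0.16 (exact permutation p = 0.40). FOR 126 alone held 78.1% to 85.3% of the inner forward reads. With each pair counted once, as the mean of log2(CPM + 1) over pairs, the difference was 0.51, again with both resting B libraries lowest (exact permutation p = 0.13).

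The same ratio to the outer regions was then taken for each other region in turn. With each pair counted once, both resting B libraries were below all 4 others in V-D (by 0.42 on average), proximal V (0.54), middle V (0.52), near distal V (0.57), far distal V (0.55) and the 3′RR (0.65; exact permutation p = 0.13 for each of these 6 regions). The D-J region did not share this pattern (0.05 higher, exact permutation p = 0.53). Of the 6 regions the 3′RR had the largest difference, and it is DNA that joining keeps, unlike the V-D and V regions, which it can delete. With summed reads, without the leading pair, proximal V, middle V and far distal V were lowest in both resting B libraries, while V-D, near distal V and the 3′RR overlapped the others. In the 3′RR these values were 0.14 and 0.20 in resting B cells and -0.02 in MEF replicate 2 (difference of means -0.39, exact permutation p = 0.40). All these ratios share the same denominator, the outer regions, so the 6 regions are not independent results. A higher denominator lowers every ratio, and the 3′ flank within it was itself called higher in resting B than in pro-B cells. No difference between regions was tested.

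**Figure D5:**
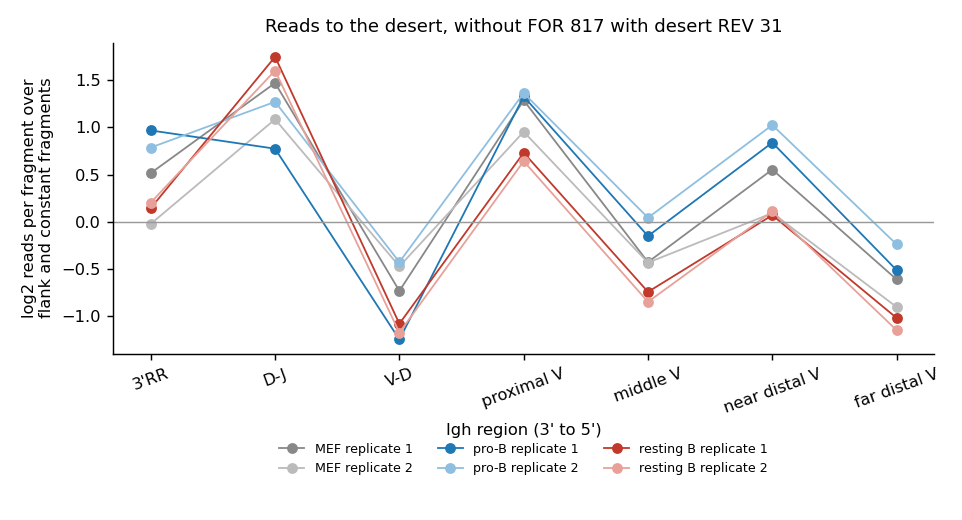
Log2 of mean interchromosomal reads per fragment in each region over that of the flank and constant fragments, for each library, without FOR 817 with desert REV 31. The resting B libraries (red) are the lowest in proximal, middle and far distal V and the highest in D-J, and in V-D they lie above pro-B replicate 1.

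Few single Igh fragments passed the test between cell types. Of 224 fragments tested, none was called in pro-B over MEF (0%; edgeR's quasi-likelihood test, with 31 at an unadjusted p under 0.05, and 7 called by DESeq2), 1 in resting B over MEF (0.446%) and 20 in resting B over pro-B cells (8.93%). The SD of the log2 ratio between replicates over all 225 fragments was 0.73 in MEF, 1.10 in pro-B cells and 0.51 in resting B cells. The SD of the ratio between group means was 0.80 for pro-B over MEF, 0.64 for resting B over MEF and 1.05 for resting B over pro-B cells. Among replicates the spread was thus widest in pro-B cells. The replicate SD compares single libraries and the group SD compares means of 2 libraries, which vary less. The 2 kinds of SD cannot be compared directly.

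The fragment called against MEF was REV 129, in the proximal V region (mm9 chr12:114836439-114838819). It held 3.14% and 0.629% of the remaining reads in MEF, 2.16% and 0.774% in pro-B, and 0.131% and 0.129% in resting B cells. Both resting B libraries were below the other 4, and the log2 fold was -3.85 ± 0.74 (SE) against MEF (edgeR, adjusted p = 0.025) and -3.46 ± 0.73 against pro-B cells (adjusted p = 0.0084). Its pair with desert FOR 52 carried this, with 3592 and 518 reads in MEF, 889 and 2364 in pro-B, and 188 and 145 in resting B cells. Its other pairs together gave 113 and 175 reads in MEF, 167 and 422 in pro-B, and 160 and 264 in resting B cells. Without the most abundant 1% of pairs the fold against MEF was -0.66 (adjusted p = 0.74). Without MEF replicate 1 it was -1.97 (adjusted p = 0.59), and without MEF replicate 2 it was -4.64 (adjusted p = 0.073).

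Of the 224 fragments tested, 140 (62.5%) lay in the 4 V regions, 58 (25.9%) in the flanks and the constant region, and 8 (3.57%) in the 3′RR. The 6 that were higher in resting B cells (2.68% of fragments) were REV 7 and REV 10 in the 3′ flank, REV 35 and REV 55 in the constant region, and REV 831 and REV 834 in the 5′ flank, all outside the V, D and J segments. REV 55 (mm9 chr12:114601397-114612029) held 0.104% and 0.125% of the remaining reads in pro-B, against 0.499% and 0.664% in resting B cells, with 0.289% and 0.778% in MEF (log2 fold 2.38 ± 0.45, SE; edgeR, adjusted p = 0.0053). REV 831 held 0.127% and 0.263% in pro-B, against 0.847% and 0.479% in resting B cells (log2 fold 1.81 ± 0.47, adjusted p = 0.027). In both fragments the MEF libraries lay above both pro-B libraries. MEF replicate 1 lay below both resting B libraries, and MEF replicate 2 lay within or above their range.

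Of the 14 that were lower in resting B cells (6.25% of fragments), 12 were in the V regions and 2 in the 3′RR, which joining keeps. Whether calls of either direction favoured a region was not tested. REV 420, in the near distal V region (mm9 chr12:115826300-115827627), held 0.664% and 0.264% of the remaining reads in pro-B, against 0.0671% and 0.0851% in resting B cells (log2 fold -2.56 ± 0.48, SE; edgeR, adjusted p = 0.0053), with 0.167% and 0.232% in MEF. REV 450, in the same region, held 0.239% and 0.247% in pro-B, against 0.0565% and 0.0443% in resting B cells (log2 fold -2.22 ± 0.44, adjusted p = 0.0053). FOR 338, in the middle V region, held 0.229% and 0.175% in pro-B, against 0.0486% and 0.0456% in resting B cells (log2 fold -2.05 ± 0.45, adjusted p = 0.0091). In the 3′RR, FOR 23 and REV 24 fell by 2.46 ± 0.48 and 2.75 ± 0.60 on the log2 scale. In each of these 5 fragments both resting B libraries were below both pro-B and both MEF libraries.

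Orientation, abundance and the number of carrying pairs moved with these calls. Of the 20, 17 were reverse primers, which pair with desert forward primers, while 113 of all 225 Igh fragments had a reverse primer. With the Igh fragments divided by their share of reads into 3 classes, the median log2 fold of resting B over pro-B cells was -0.56 in the lowest class (74 fragments, 8 called lower, none higher). It was -0.02 in the middle class (75 fragments, 2 higher, 4 lower) and 0.33 in the highest class (75 fragments, 4 higher, 2 lower). In 4 of the 14 lower fragments a single pair held over 50% of the reads, against 25 of all 225 fragments. The part of these in the calls was not tested. The number of fragments called was 0 without MEF replicate 1 or without MEF replicate 2, 58 without pro-B replicate 1, 56 without pro-B replicate 2, and 8 without resting B replicate 2.

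The landmark fragments of the locus showed no call outside FOR 23 and REV 24. REV 81, the fragment of the intronic enhancer between the J segments and the constant region (mm9 chr12:114664824-114667095), had 1530 and 978 reads in MEF, 240 and 4367 in pro-B, and 2420 and 3614 in resting B cells, and log2 folds of -0.34 to 0.33. REV 94, the fragment nearest to IGCR1, an insulator between the V and D segments (mm9 chr12:114722112-114723013), had 93 and 152, 51 and 815, and 213 and 285 reads. Its fold was -0.20 ± 0.47 (log2, SE) in resting B over MEF and -0.92 ± 0.47 over pro-B cells (edgeR, adjusted p = 0.93 and 0.18). The other 6 fragments of the 3′RR had folds of -2.03 to 0.93 in resting B over pro-B cells, none past the threshold.

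The desert fragments, which V(D)J recombination does not remove, also differed between resting B and pro-B cells. Summed over all Igh partners, 4 of 47 tested were called in pro-B over MEF (8.51%), 3 in resting B over MEF (6.38%; 2 higher, 4.26%, and 1 lower, 2.13%) and 16 in resting B over pro-B cells (34%), beside 8.93% of the Igh fragments in the last comparison. Desert FOR 59 (mm9 chr5:133413032-133423014) held 2.46% and 6.07% of the remaining reads in MEF, 1.16% and 1.35% in pro-B, and 5.42% and 5.80% in resting B cells. Its log2 fold was -1.86 ± 0.36 (SE) in pro-B over MEF (edgeR, adjusted p = 0.0035) and 2.88 ± 0.38 in resting B over pro-B cells (adjusted p = 2.6e-05). Desert REV 41 held 7.88% and 6.13% in MEF, 5.30% and 6.92% in pro-B, and 10.9% in each resting B library (1.26 ± 0.28 above MEF, adjusted p = 0.015). Desert REV 56 held 0.561% and 0.270% in MEF, 1.80% and 0.267% in pro-B, and 0.0222% and 0.0241% in resting B cells (log2 fold -4.60 ± 0.89 against pro-B cells, adjusted p = 0.00087).

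These desert calls moved with recovery. Of the 16 between resting B and pro-B cells, 9 were higher, all among the 30 well recovered fragments, and 7 were lower, of which 5 were among the 17 poorly recovered fragments that were tested. The median log2 fold was 0.38 over the well recovered and -1.59 over the poorly recovered fragments. In pro-B over MEF the same medians were -0.12 and 1.17. A desert fragment and an Igh fragment thus both tended to hold a smaller share in resting B than in pro-B cells where they gave few reads; the share of each library's reads that fell on poorly recovered desert fragments was 1.39% and 0.974% in MEF, 4.74% and 1.07% in pro-B, and 0.455% and 0.467% in resting B cells. Taking only the well recovered desert fragments, the Igh regions called were the same in number, 1 and 2.

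Single pairs passed the test rarely. Of 2233 pairs tested, 4 were called in pro-B over MEF (0.179%), none in resting B over MEF (0%; 107 at an unadjusted p under 0.05 in edgeR, and 5 called by DESeq2) and 8 in resting B over pro-B cells (0.358%). All 4 pairs lower in pro-B cells than in MEF were also the 4 that were higher in resting B; the 2 comparisons share the pro-B libraries. Desert FOR 59 with REV 137 had 156 and 451 reads in MEF, 1 and 1 in pro-B, and 559 and 722 in resting B cells (adjusted p = 0.019 and 0.013). Desert FOR 36 with REV 326 had 104 and 260, 0 and 1, and 432 and 448 reads (adjusted p = 0.019 and 0.013). Desert FOR 67 with REV 83 had 122 and 207, 0 and 4, and 525 and 808 reads, and desert FOR 59 with REV 33 had 125 and 271, 2 and 4, and 825 and 457. In each, both pro-B libraries were near 0 although pro-B replicate 2 held the most remaining reads of all libraries.

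The 4 pairs lower in resting B than in pro-B cells were FOR 28 with desert REV 56, FOR 272 with desert REV 72, desert FOR 52 with REV 129, and FOR 233 with desert REV 20. FOR 28, in the 3′RR, with desert REV 56 had 294 and 129 reads in MEF, 431 and 461 in pro-B, and 21 and 15 in resting B cells (log2 fold -6.15 ± 1.06, SE; edgeR, adjusted p = 0.016). FOR 272, in the middle V region, with desert REV 72 had 178 and 167, 273 and 352, and 22 and 30 reads (adjusted p = 0.040). In these 2 pairs the resting B libraries were below the other 4, and the pro-B replicates had like counts although their totals differed 7.36-fold. Without pro-B replicate 1, and likewise without pro-B replicate 2, no pair was called in any of the 3 comparisons.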

How the data were processed

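5C libraries of 6 samples were analysed. The values are counts of valid reads for each primer pair as deposited, without normalization; per the file headers, reads were 42 bases long. Novoalign and mm9 are named in the submitters' processing notes; no version is given in the sources used here. No correction is recorded, and reads were not deduplicated by molecular identifiers. Primer names supply the coordinates (mm9); region edges are approximate, and without an mm9 annotation or primer sequences, no V gene is named and no sequence printed.

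Counts were summed per Igh fragment, region and desert fragment. Each table was tested with edgeR 4.0.16 (R 4.3.3): TMM scaling, quasi-likelihood tests in a model of cell type alone over all 6 libraries, features reaching 10 reads in 2 or more libraries, and Benjamini-Hochberg adjustment over all features tested, with a threshold of 0.05. Regions used the scaling of the Igh fragments. SE was taken as log2 fold over the square root of F. The expected count of a pair is the product of both primers' reads with their other partners over the reads of all pairs holding neither. The ratio within libraries was tested by exact permutation. "Remaining reads" are interchromosomal reads other than FOR 817 with desert REV 31.

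Named per comparison were all 10 regions; up to 10 Igh fragments, 3 desert fragments and 5 pairs per direction past the threshold with both libraries of a group above both of the other, in order of p (where none passed, 2 per direction); the 10 most abundant pairs; and landmark fragments. The text describes some of them. Other features with high counts were chosen after their values were seen. The members and lists were chosen with earlier results of these data known. The code was tested on simulated data. Replicate numbers were checked for pairing: deviations of same-numbered libraries from their group means correlated at 0.09, 0.22 and -0.07 over 225 fragments, so the numbers were not taken as pairs. Alternatives were DESeq2 1.42.0, limma 3.58.1 on pairs counted once with a pseudocount of 1, other scalings and filters, single primer orientations, a replicate block and leaving out libraries.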

Additional observations from a re-analysis of the deposited data

How the results depend on the processing

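The ratio of inner to outer fragments turned from 0.29 (resting B minus the others) to -0.53 without the most abundant 1% of pairs, -0.51 with each pair counted once, -1.07 over Igh reverse primers, -0.54 without FOR 817 with desert REV 31, -0.16 over forward primers without that pair and -0.33 with wider inner regions without it. It was -0.082 to 0.73 when each library was left out in turn, negative without MEF replicate 1. Values below are numbers called for pro-B over MEF, resting B over MEF and resting B over pro-B cells, in that order where 3 are given.

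Igh fragments (0, 1 and 20) came to 65, 4 and 10 with total interchromosomal reads as library size, 122, 5 and 9 with flank and constant reads, 10, 9 and 63 with these without the abundant pair, and 0, 0 and 0 with desert cis reads. They were 7, 0 and 50 by DESeq2, 1, 13 and 0 with only the 4 libraries compared, 1, 0 and 37 without the top 1% of pairs, and 6, 0 and 37 with each pair counted once (limma). The call against MEF was lost (0) without FOR 817 with desert REV 31 and with well recovered desert fragments only. Leaving out a library gave 0 to 24, 0 to 16 and 0 to 58, the highest without pro-B replicate 1.

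Regions (0, 1 and 2) came to 8, 8 and 0 with total reads, 7, 5 and 0 with flank and constant reads, and 8, 4 and 7 without the top 1% of pairs. They were 1, 0 and 1 with forward primers, and 2 and 4 in the last comparisons with reverse primers. With each pair counted once the last 2 were 0 and 4. Resting B over MEF fell to 0 without FOR 817 with desert REV 31 and without REV 83. Leaving out a library gave 0 to 2, 0 to 2 and 0 to 5, the last 5 without MEF replicate 2.

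Desert fragments (4, 3 and 16) came to 29 in pro-B over MEF with total reads, and 0 and 1 in the comparisons with MEF with well recovered fragments only. Resting B over MEF was 1 without the top 1% of pairs. Leaving out a library gave 1 to 11, 0 to 6 and 7 to 28, where 28 is without pro-B replicate 2. Primer pairs (4, 0 and 8) came to 108, 5 and 173 by DESeq2 and 13, 2 and 46 without the filter, and to 0 to 9, 0 to 1 and 0 to 9 when a library was left out. Where a group was left with 1 library, that library was assumed to vary like the others.

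With the replicate number as a block, although the numbers were not shown to pair the libraries, Igh fragments called were 2 in pro-B over MEF, regions 0 in resting B over MEF and 1 in resting B over pro-B cells, desert fragments 8 in resting B over MEF, and pairs 10, 3 and 27.

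Single results that turned did so mostly with scaling. In pro-B over MEF, with flank and constant reads as library size, REV 81 was at 1.72, FOR 25 at 1.81, FOR 31 at 1.65, REV 29 at 1.76, D-J at 1.39 and the constant region at 1.58; with total reads D-J was at 0.82 and the constant region at 1.04. In resting B over MEF, total reads gave 0.82 for proximal, 0.86 for middle, 1.03 for near distal and 0.92 for far distal V, and flank and constant reads 1.14, 1.17 and 1.35 for the first 3. The 5′ flank was at 0.45 without the top 1% of pairs and 0.48 with reverse primers. Alternatives naming FOR 817 with desert REV 31, REV 83 or well recovered desert fragments were chosen after seeing the data. The cause of these changes was not tested. Depth limits single pairs, with a median of 1 read.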

Other observations

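The fold of a fragment in its interchromosomal reads moved with its fold in far contacts inside Igh. For each of 224 Igh fragments, the log2 fold of reads with the desert was set beside that of its reads with Igh partners over 1000 kb away. Pearson's r across fragments was 0.34 for pro-B over MEF, 0.49 for resting B over MEF and 0.60 for resting B over pro-B cells (Spearman 0.33, 0.47 and 0.59). Both readouts of a fragment come from the same primer and the same libraries, and the comparisons share libraries, so these are descriptions with no test.

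The reads with the desert were not a constant share of far contacts. The mean Igh pair over 1000 kb apart had 5.25 and 5.86 times the reads of the mean pair with a well recovered desert fragment in MEF, with the abundant pair left out. The ratio was 9.23 and 2.57 in pro-B, and 3.86 and 4.93 in resting B cells. The pro-B replicates again gave the highest and the lowest value.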
